A study of Drosophila melanogaster with 42 samples.

Results

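The odorant receptor (Or), gustatory receptor (Gr) and ionotropic receptor (Ir) genes of Drosophila melanogaster were examined in DamID-seq peak lists from adult intestinal stem cells (ISCs). Members were the protein-coding RefSeq genes of genome release 6 outside chromosome 4 whose symbol is Or, Gr or Ir followed directly by a digit. The rule found 179 genes (59 Or, 60 Gr and 60 Ir) of 13842 protein-coding genes on arms 2L, 2R, 3L, 3R and X. Another 7 matching symbols were pseudogenes and were left out, and 0 lay on chromosome 4.

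In DamID, a DNA adenine methyltransferase (Dam) is fused to a chromatin protein and methylates GATC sites near the places that protein visits, and Dam alone serves as the control. The genotypes were esg-gal4ts NREGal80>UAS-DamKis, UAS-DamPolII, UAS-DamBrm, UAS-DamPolycomb, UAS-DamHP1, UAS-DamH1 and UAS-DamTrr, with 3 samples each, and the same driver with UAS-Dam, with 11 samples. The esg driver acts in progenitor cells, and NRE-GAL80 blocks it where Notch signaling is active, which leaves mainly ISCs. A temperature-sensitive GAL80 held expression off at 18°C until flies were 3 days old, and a shift to 29°C for 1 day turned it on. Each DamID sample came from 60 guts. For some of the HP1 and H1 samples the genotype field gives another protein number than the title, and the title was followed. RNA-seq of sorted ISCs (4 kis RNAi, 3 trr RNAi and 3 white RNAi samples) was not analysed here, so no RNA level is given for any receptor gene.

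Or proteins are odor-gated channels of olfactory neurons that work together with the co-receptor Orco. Gr proteins detect sugars, bitter compounds and carbon dioxide, mainly in taste neurons. Ir proteins descend from ionotropic glutamate receptors, work with broadly used co-receptors such as Ir25a, and sense acids, amines, temperature and humidity. As a rule each receptor is transcribed in a small set of sensory neurons. In the gut epithelium the families are mostly regarded as silent, with a few members known from enteroendocrine cells, a type the fusions were not directed to. Of the proteins mapped here, RNA polymerase II (RNA Pol II), the chromodomain remodeler Kismet, the H3K4 monomethyltransferase Trr and the remodeler Brahma (Brm) mark active chromatin. The study also reported Kismet peaks in some genes silent in ISCs but expressed in enteroendocrine cells or enterocytes, so a Kismet peak alone does not show an active gene. Polycomb (Pc), heterochromatin protein 1 (HP1) and histone H1 mark repressed chromatin.

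The files hold only peak positions (arm and both ends), with no count, score or value per sample. All samples of a fusion entered a single call by the authors, so neither the depth nor the variation among replicates can be stated. The lists are not independent, since their Dam-only controls overlap. A set of 3 served both RNA Pol II and Kismet, a second set of 3 served H1, HP1 and Brm and lent 1 sample to Pc, and Trr had 3 of its own. The labelled cell type was checked on marker genes. Delta, the Notch ligand of ISCs, had 18695 of its 23487 bp in RNA Pol II peaks, and esg and Sox21a, transcription factors of progenitors, lay wholly in them (2273 and 4638 bp). The stem cell gene spdo had 571 of 2166 bp in them. Genes of other cells were covered in part as well, with 8314 of 14966 bp in Myo31DF, an enterocyte gene, 2604 of 40511 bp in nub, also of enterocytes, and 773 of 79148 bp in pros, of enteroendocrine cells. The neuronal genes nSyb and Syt1 had 0 bp in RNA Pol II peaks, but elav had 3683 of 13992 bp. The markers therefore do not set ISCs apart from their progeny in this list.

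Most receptor genes carried no peak of any protein. Any overlap of 1 bp or more between a peak and the gene body, from the lower to the higher annotated end, counted as binding. By this count 151 receptor genes, or 84.4% (95% Wilson interval 78.3% to 89.0%), were bound by none of the 7 proteins, and 28, or 15.6% (11.1% to 21.7%), by at least 1 of them. Among all protein-coding genes of the 5 arms 55.1% were bound by at least 1. Receptor genes are short, with a median of 1691 bp against 2167 bp for other protein-coding genes, and a short gene meets fewer peaks. The share of other genes was therefore taken in each of 10 bins of gene length and weighted to the lengths of the receptor genes. This share in genes of like length was 54.4%, or 97.4 genes where 28 were observed. The intervals cover counting error over genes only, and they are too narrow because neighboring receptor genes can lie in the same chromatin. No test was run on the members as a set.

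**Figure D1:**
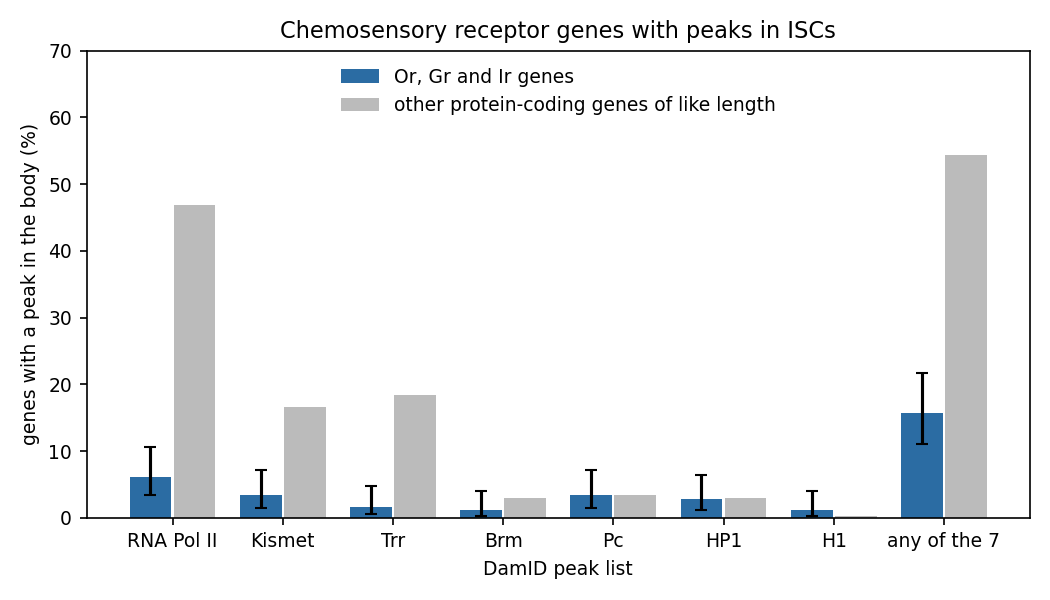
Share of the 179 receptor genes (blue, with 95% Wilson intervals) and of other protein-coding genes of like length (grey, no error shown) with at least 1 bp of the gene body in a peak, in percent, for each peak list and for any of the 7. The blue bars stand at 6.15%, 3.35% and 1.68% for RNA Pol II, Kismet and Trr, where the grey bars stand at 46.9%, 16.6% and 18.4%, and the bars for Pc and HP1 are nearly level.

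The gap lay in the lists of active chromatin. RNA Pol II peaks lay in 11 receptor genes, or 6.15% (3.47% to 10.7%), where 46.2% of all protein-coding genes and 46.9% of other genes of like length had them. Kismet peaks lay in 6, or 3.35% (1.55% to 7.12%), against 24.7% of all genes and 16.6% at like length. Trr peaks lay in 3, or 1.68% (0.572% to 4.81%), against 23.2% and 18.4%. For these 3 lists the share at like length lay above the whole interval of the receptor genes. Brm peaks, which are few and short, lay in 2, or 1.12% (0.307% to 3.98%), against 7.01% of all genes and 2.98% at like length, a value inside the interval.

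The lists of repressed chromatin gave no such gap, and they did not fill the empty genes either. Pc peaks lay in 6 receptor genes, or 3.35% (1.55% to 7.12%), against 5% of all genes and 3.43% at like length. HP1 peaks lay in 5, or 2.79% (1.20% to 6.37%), against 4.44% and 3.01%. H1 peaks lay in 2, or 1.12% (0.307% to 3.98%), against 0.643% and 0.298%. The interval for H1 began just above the value at like length, but it rests on 2 genes. With the longer H1 peaks alone (those of at least the median length) the difference turned, to -0.19 percentage points.

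Of the 28 genes with a peak, 22 had peaks of 1 protein only, 5 of 2 proteins and 1 of 3. These were 12.3%, 2.79% and 0.559% of receptor genes, against 31.6%, 11.7% and 8.47% of other genes of like length. The gene with 3 was Or63a, and 0 receptor genes had more. Of other genes of like length 2.27% had exactly 4, 0.409% exactly 5 and 0.0271% exactly 6.

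**Figure D2:**
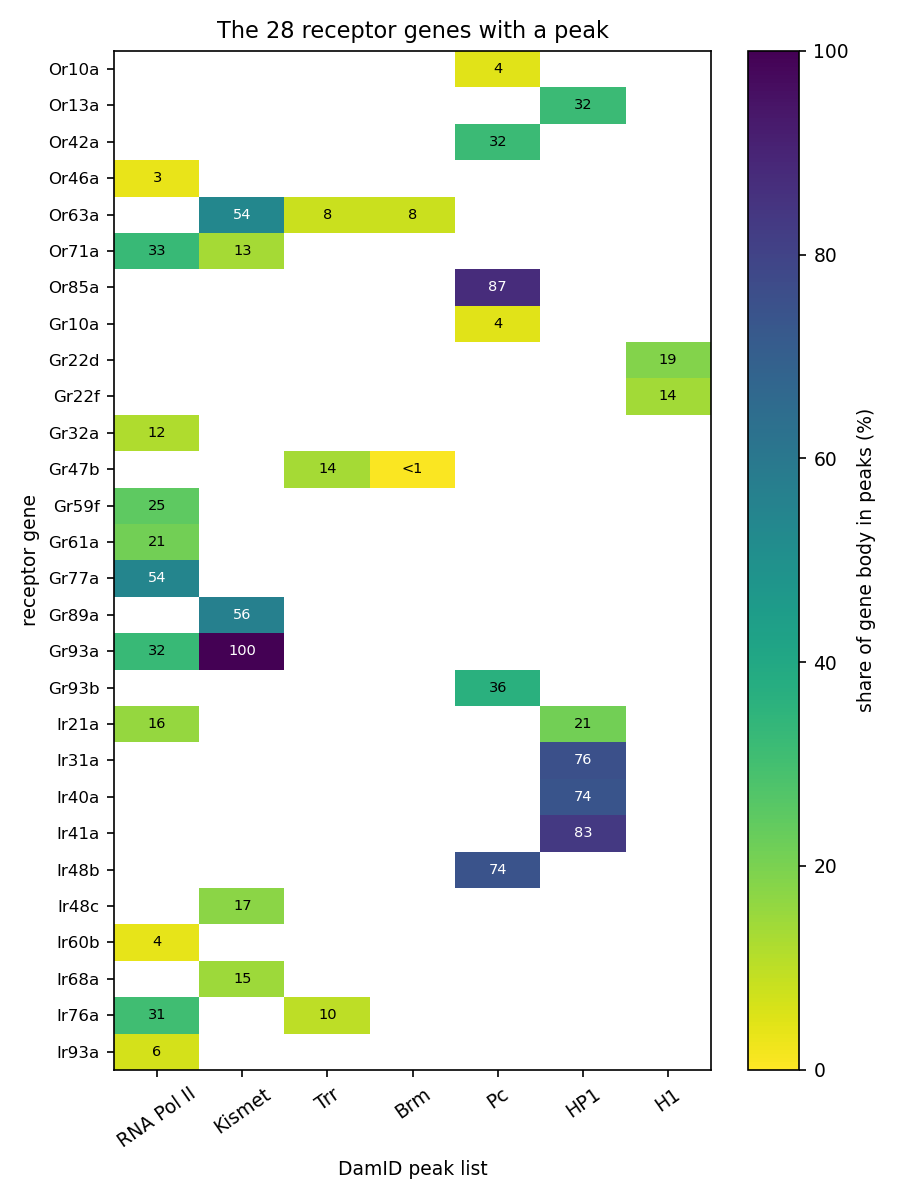
Share of the gene body in peaks of each protein, in percent (color and printed number), for the 28 receptor genes with a peak, in the order Or, Gr, Ir. White cells had 0 bp in peaks. Filled cells are scattered, with most rows holding a single one, and Gr93a is wholly inside a Kismet peak.

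Most RNA Pol II peaks in receptor genes crossed a gene end. There were 12 such peaks in the 11 genes, 11 of them lay across an end of the receptor gene, and 11 also touched another gene. The exception to the first count was Ir76a and to the second Gr93a. A gene of like length outside the families had an RNA Pol II peak that touched no other gene in 8.85% of cases, and among receptor genes this was 1, or 0.559% (0.0987% to 3.10%), with 13.9% over all genes. At least 50% of the body lay in RNA Pol II peaks in 1 receptor gene and in 16.5% of others of like length (13.7% of all genes). These low shares largely repeat the low share of receptor genes with any RNA Pol II peak. Of the 11 with such a peak, 1 or 9.09% (1.62% to 37.7%) had one that touched no other gene and 1 had one wholly inside, against 18.9% and 14.2% of the other genes of like length that had a peak, both inside the interval. A Kismet peak that touched no other gene lay in 1 receptor gene (4.85% at like length, 12% of all genes) and a Trr peak of this kind in 2 (8.53% and 13.6%). At least 50% of the body lay in Kismet peaks in 3 receptor genes, Gr89a, Gr93a and Or63a, against 5.55% at like length and 8.06% of all genes. These ways of counting were chosen after the peaks had been seen.

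Gr77a (FBgn0045474, 3L from 20737569 to 20739430) had the largest part of its body in RNA Pol II peaks, 1013 of 1862 bp or 54.4%. The peak had a length of 9452 bp and also touched CG13252. Or71a (FBgn0036474, 3L from 15076907 to 15078447), a receptor of the maxillary palp, had 505 of 1541 bp in 2 peaks, over both of its ends. It overlaps Plp, the gene of a pericentrin-like centrosome protein, and both peaks also touched Plp. In Gr93a (FBgn0041229, 3R from 21832503 to 21834013), needed for the response to caffeine, 491 of 1511 bp or 32.5% lay in a peak of 4046 bp. Ir76a (FBgn0260874, 3L from 19799278 to 19803427), a receptor for amines, had its 1268 bp peak wholly inside, or 30.6% of the gene, in a stretch where CG14102 lies too. Gr59f (FBgn0041234, 2R from 23542510 to 23543885) had 341 of 1376 bp in a peak it shared with AIMP3, a factor of the aminoacyl-tRNA synthetase complex, and with wmd.

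The other 6 genes had smaller parts covered. Ir93a (FBgn0259215), needed for cool and humidity sensing, had 526 of 8237 bp in a peak that also touched RpS30, a ribosomal protein gene. Ir21a (FBgn0031209), a cool receptor near the tip of 2L, had 532 of 3333 bp in a 7281 bp peak that also touched l(2)gl, a cell polarity gene. Gr32a (FBgn0041246), a receptor of bitter neurons, had 219 of 1810 bp in a peak that also touched Idua, which encodes a lysosomal enzyme. In Gr61a (FBgn0035167), a sugar receptor, 475 of 2251 bp lay in a peak that touched JMJD5. Ir60b (FBgn0259185) had 64 bp in a peak that also touched Letm1, and Or46a (FBgn0026388) had 95 bp in a peak that also touched CG18011 and asRNA:CR43467. Reads in a peak that touches a pair of genes cannot be told apart by gene.

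Kismet peaks were found in Gr93a, Gr89a, Or63a, Ir48c, Ir68a and Or71a. Gr93a lay wholly inside an 18006 bp Kismet peak that ran from 21823671 to 21841676. Gr89a (FBgn0038440, 3R from 16497817 to 16498959), a receptor of bitter neurons, had 645 of 1143 bp or 56.4% in a peak that ran on into Decay, a caspase gene. Ir48c (FBgn0033651) had 293 of 1686 bp at the edge of a 5925 bp peak that also touched ths, which encodes an FGF ligand. Ir68a (FBgn0036150), a receptor for moist air, had 482 of 3247 bp in a peak shared with CG42671. Of the 7 Kismet peaks in receptor genes, 6 touched another gene. The Kismet peak in Or63a did not.

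Or63a (FBgn0035382, 3L from 2961534 to 2963788), an odorant receptor of the larva, was the sole receptor gene bound by Kismet, Trr and Brm. Its Kismet peak covered 1215 of 2255 bp, or 53.9%, from 2961843 to 2963057, wholly inside the gene. The Trr and Brm peaks had the same bounds, 2962288 to 2962466, a length of 179 bp inside the Kismet peak. The gene had 0 bp in RNA Pol II peaks. Gr47b (FBgn0041241, 2R from 11361900 to 11363405) had a 205 bp Trr peak inside it. Its Brm peak of 2091 bp lay next to the gene and overlapped it by 7 bp. In Ir76a the Trr peak covered 408 bp and began at the same site as the RNA Pol II peak, at 19800748.

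**Figure D3:**
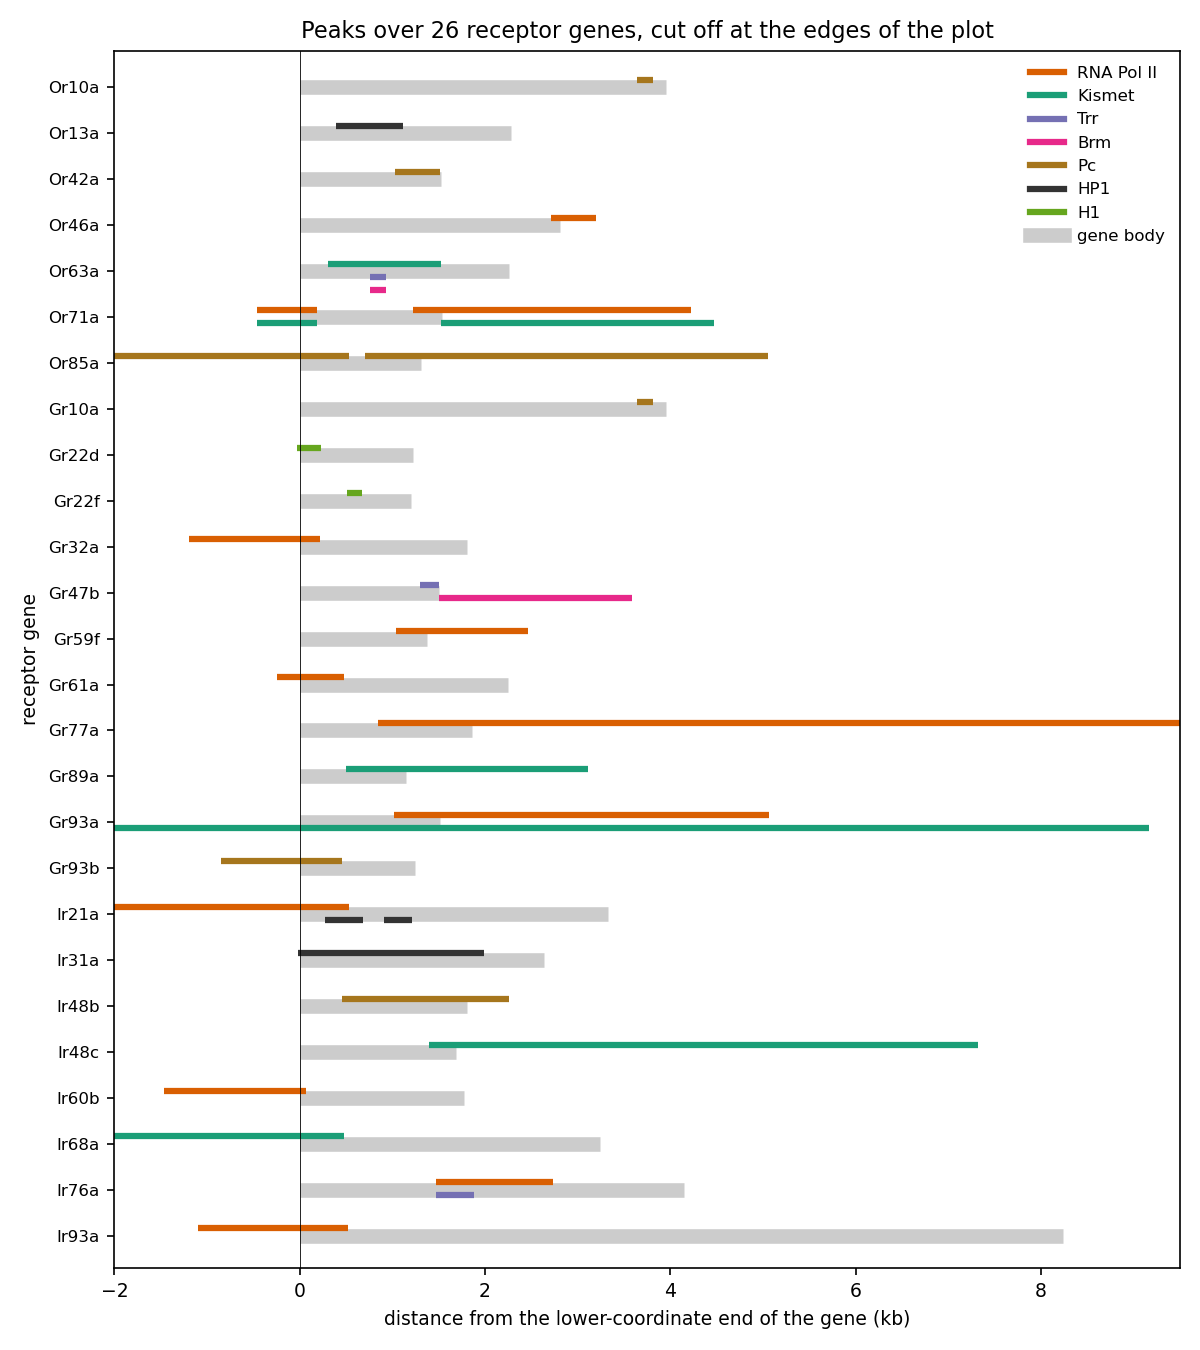
Gene bodies (grey) and peaks (colored by protein) for 26 of the 28 receptor genes with a peak, drawn to scale as distance in kb from the lower-coordinate end of each gene, with peaks beyond the plot cut off. Ir40a and Ir41a, at 24851 and 104437 bp, are left out for their size. Most RNA Pol II and Kismet peaks cross a gene end. Among the peaks inside a gene are the Kismet peak of Or63a, the RNA Pol II peak of Ir76a, the HP1 peak of Or13a and the H1 peak of Gr22f.

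Pc peaks lay in Or85a, Ir48b, Gr93b, Or42a, Gr10a and Or10a. Or85a (FBgn0037576, 3R from 8321747 to 8323054), an antennal odorant receptor, had 1141 of 1308 bp or 87.2% in 2 Pc peaks of 3461 and 4349 bp, which also touched Poxm, a paired-box transcription factor gene that it overlaps. Ir48b (FBgn0033648, 2R from 11700647 to 11702449) had 1342 of 1803 bp, or 74.4%, in a Pc peak that touched no other gene. Gr93b (FBgn0045470) had 453 of 1245 bp at the edge of a 1301 bp Pc peak. This peak begins at 21841673 on 3R, at the GATC site where the Kismet peak over the neighboring Gr93a ends (21841676). Or42a (FBgn0033041), a receptor for fruit esters, had 486 of 1527 bp in a Pc peak inside it. Gr10a (FBgn0045502) and Or10a (FBgn0030298) have the same annotated span on X, 11413467 to 11417422, and share a single 174 bp Pc peak, so the 6 genes stand for 5 places. None of these 6 genes had a peak of another list. A Pc peak that touched no other gene lay in 3 of them (2.18% at like length, 3.59% of all genes), and 2 had at least 50% of the body in Pc peaks (1.13% and 1.57%).

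HP1 peaks were found in Ir41a, Ir31a, Ir40a, Or13a and Ir21a, and nearly all of their base pairs lay in a pair of very long genes. Ir41a (FBgn0040849, 2R from 4917519 to 5021955), a receptor for polyamines, had 87112 of 104437 bp or 83.4% in HP1 peaks. Ir40a (FBgn0259683, 2L from 22189526 to 22214376), needed for the response to dry air, had 18376 of 24851 bp or 73.9%. Both lie within 5 Mb of the centromere, and 16 and 8 HP1 peaks fell in them. Together they held 96.9% of the 108912 bp of HP1 peaks in receptor genes. HP1 peaks covered 22.8% of the base pairs of all receptor genes and 0.983% without Ir40a and Ir41a, against 5.65% for other protein-coding genes. At least 50% of the body lay in HP1 peaks in 3 receptor genes, Ir31a, Ir40a and Ir41a, or 1.68% (0.572% to 4.81%), against 0.655% at like length and 1% of all genes. An HP1 peak that touched no other gene lay in 4, against 2.07% and 3.25%. The other 6 receptor genes within 5 Mb of a centromere had 0 peaks of any protein, so that 2 of 8 had one (25%, 7.15% to 59.1%). Of other genes of like length within 5 Mb of a centromere 68.0% had a peak of any list and 18.9% an HP1 peak.

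The remaining HP1 peaks lay far from the centromeres. Ir31a (FBgn0051718, 2L from 10405565 to 10408197), an antennal receptor, had 1991 of 2633 bp or 75.6% in a 2006 bp HP1 peak at 13103335 bp from the centromeric end of 2L. Or13a (FBgn0030715, X from 15974425 to 15976706) had 723 of 2282 bp in a peak inside it. Ir21a starts 21823 bp from the tip of 2L and had 2 short HP1 peaks, of 414 and 296 bp, beside its RNA Pol II peak. The first of the 2 lies partly under the RNA Pol II peak, which ends at 22354, while the HP1 peak runs from 22095 to 22508.

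H1 peaks lay in Gr22f and Gr22d, both members of the Gr22 group on 2L. Gr22f (FBgn0041249, 2L from 1755253 to 1756451) had a 164 bp H1 peak inside it, and Gr22d (FBgn0045498, 2L from 1789141 to 1790361) had 226 bp of a 256 bp peak at its lower end. Neither peak touched another gene, which held for H1 peaks in 0.184% of other genes of like length and 0.52% of all genes. Of the 129 H1 peaks in the list, 6 lay within 10 kb of a receptor gene, and because receptor genes stand close together they reached 13 of them, or 7.26% (4.29% to 12%). Of other genes of like length 1.67% had an H1 peak within 10 kb, and of all protein-coding genes 2.11%. The 13 genes were 6 of the Gr22 group, 3 of the Ir7 group, Gr58a, Gr58b, Gr98a and Or47a. They stand for 6 peaks, so the 13 genes are not independent of one another.

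Of 40 receptors listed by their known role, 10, or 25% (14.2% to 40.2%), had a peak of any list, against 15.6% of all 179 receptor genes, which lies inside that interval, and 54.4% of other genes of like length. The lists of single roles hold 2 to 9 genes, too few to read a difference between roles. The 3 co-receptors Ir8a, Ir25a and Ir76b had 0 bp in peaks of any protein, as did the 2 carbon dioxide receptors Gr21a and Gr63a. The nearest RNA Pol II peak was 496 bp from Ir8a, 2094 bp from Ir25a and 75529 bp from Ir76b. Among 9 sugar receptors only Gr61a had a peak. Gr43a, the internal fructose sensor of the brain, had its nearest RNA Pol II peak 2324 bp away, and Gr28b, a warmth receptor, 15875 bp away. Among 7 bitter receptors Gr32a, Gr89a and Gr93a had peaks, and Gr8a, Gr33a, Gr39a and Gr66a had none. Of 5 temperature and humidity receptors 4 had a peak, namely Ir21a, Ir40a, Ir68a and Ir93a. Of 6 receptors for acids and amines 2 had a peak, Ir41a and Ir76a. The 4 pheromone receptors Or47b, Or65a, Or67d and Or88a and the 4 food odor receptors Or22a, Or42b, Or56a and Or92a had none. The nearest RNA Pol II peak was 48219 bp from Or67d, which detects the male pheromone cVA, and 22560 bp from Or56a, the geosmin receptor.

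Receptor genes often stand in tandem arrays, and many held no peak from end to end. Taking receptor genes less than 5 kb apart as 1 array gave 28 arrays with 79 genes. In 21 arrays, with 60 genes, no list had a peak anywhere between the outer ends, intergenic parts included. The largest, Gr64a to Gr64f on 3L, holds 6 sugar receptor genes in 10807 bp. In it Gr64b and Gr64c have the same annotated span (4028605 to 4032032). Gr64d and Gr64e share nearly all of theirs, which start at 4032062 and 4032141 and both end at 4035703. These genes are counted separately among the 151 without a peak, although they do not stand for separate places. The array Ir7c to Ir7g on X holds 5 genes in 12583 bp, and Ir52a to Ir52d on 2R holds 4 genes in 8735 bp. RNA Pol II peaks reached 3 arrays, Pc peaks 3 and H1 peaks 1, while Kismet, Trr, Brm and HP1 peaks reached 0. Receptor genes in arrays had a peak of any list in 7 of 79 cases, or 8.86% (4.36% to 17.2%). Those with no other receptor gene within 5 kb had one in 21 of 100 cases (14.2% to 30%). The intervals overlap slightly, and the difference between the 2 sets was not tested. Other genes of the lengths of these 2 sets had a peak in 53.2% and 55.4% of cases, so both sets lay below. Stretches of other genes of like span were not counted, so the number of empty arrays has no background.

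Receptor genes that share their ground with other genes held most of the RNA Pol II peaks. Of the 49 receptor genes whose body overlapped a gene outside the families, 7 had an RNA Pol II peak, or 14.3% (7.10% to 26.7%). Of the 130 that did not, 4 had one, or 3.08% (1.20% to 7.64%). The intervals overlap slightly, and among other genes of like length the same split gave 51.3% and 43.2%. In Ir21a, Or46a, Or71a, Ir76a and Gr77a the peak also touched a gene that overlaps the receptor gene. In Gr32a and Ir93a it did not touch the overlapping gene, CG6230 and mir-1011. Whether the overlapping genes carried the peaks was not tested.

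The empty stretch extended beyond the gene bodies. The median distance from a receptor gene to the nearest RNA Pol II peak was 11888 bp, and for other genes of like length it was 306 bp. For Kismet the medians were 14179 and 5457 bp, and for Trr 16258 and 4821 bp. For H1 they lay close together, at 555662 and 542983 bp. Within 1 kb, RNA Pol II and Kismet peaks lay near 16 receptor genes each, or 8.94% (5.58% to 14%), against 55.1% and 24.8% at like length and 53.7% and 31.5% of all genes. Trr peaks lay within 1 kb of 7, or 3.91%, against 28.1% at like length and 31.5% of all genes. Within 10 kb, 77 receptor genes or 43.0% (36.0% to 50.3%) had an RNA Pol II peak, against 79.7% of others of like length and 77.3% of all genes. Kismet peaks lay within 10 kb of 65, or 36.3%, against 64.0% and 65%. Trr peaks lay within 10 kb of 58, or 32.4%, against 65.4% and 63.8%. For Brm the count was 27, or 15.1% (10.6% to 21.1%), against 23.5% and 25.5%, and for Pc 22, or 12.3% (8.26% to 17.9%), against 13.7% and 14.7%. The share at like length lay above the interval for Brm and inside it for Pc. HP1 peaks lay within 10 kb of 12 receptor genes, or 6.70% (3.88% to 11.4%), against 15.8% at like length and 16% of all genes. In the gene bodies themselves the HP1 shares had been nearly level. A peak of any list lay within 10 kb of 119, or 66.5% (59.3% to 73.0%), against 85.5% of all genes. No peak of any list lay within 10 kb of the other 60 receptor genes, or 33.5% (27.0% to 40.7%), and of 13.1% of other genes of like length.

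**Figure D4:**
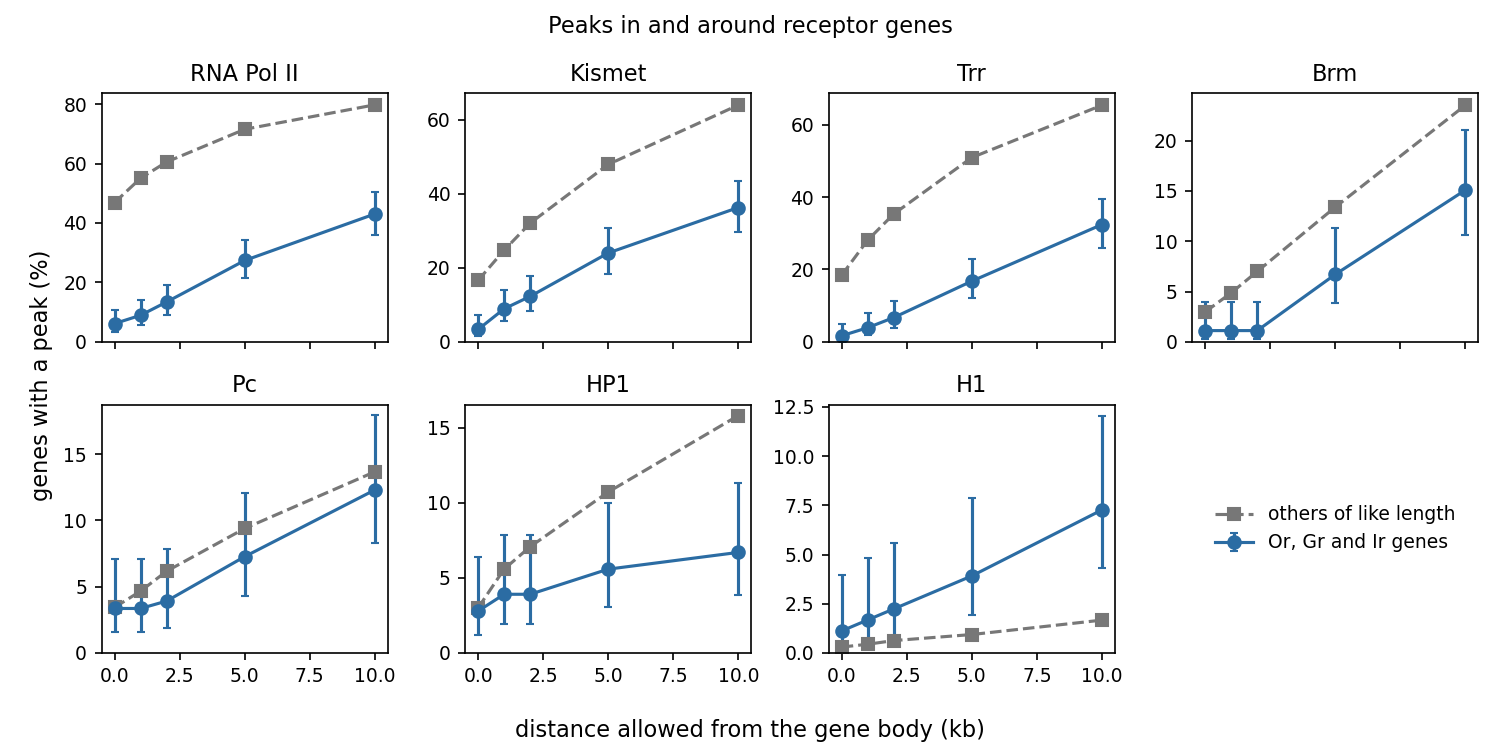
Share of genes with a peak in the body or within 1, 2, 5 or 10 kb of it, in percent, for each list, with the allowed distance in kb on the x axis and a separate y scale per list. Receptor genes are blue with 95% Wilson intervals and other genes of like length grey. The blue line stays below the grey one for RNA Pol II, Kismet and Trr up to 10 kb, where RNA Pol II reaches 43.0% and 79.7%, and lies above it for H1.

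The 3 families were alike in the lists of active chromatin. RNA Pol II peaks lay in 2 of 59 Or genes (3.39%, 0.935% to 11.5%), 5 of 60 Gr genes (8.33%, 3.61% to 18.1%) and 4 of 60 Ir genes (6.67%, 2.62% to 15.9%). Other genes of the lengths of each family had them in 45.2%, 45.7% and 49.7% of cases. Kismet peaks lay in 2 genes of each family and Trr peaks in 1 of each. For RNA Pol II, Kismet and Trr the share at like length was above the upper bound of the interval in every family. A peak of any list was found in 7 Or, 11 Gr and 10 Ir genes, or 11.9%, 18.3% and 16.7%, against 52.3%, 52.9% and 58.0% at like length.

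In the lists of repressed chromatin the counts per family were small. HP1 peaks lay in 4 Ir genes, 1 Or gene and 0 Gr genes, or 6.67%, 1.69% and 0%, against 3.46%, 2.73% and 2.82% at like length. Pc peaks lay in 3 Or, 2 Gr and 1 Ir genes, or 5.08%, 3.33% and 1.67%, against 3.11%, 3.05% and 4.14%. The single peak shared by Or10a and Gr10a counts in both families. Both genes with H1 peaks were Gr genes, or 3.33% (0.919% to 11.4%), against 0.283%. All of these intervals overlap between families, which have 59 or 60 genes each, and no difference between families was tested. Ir genes are the longest, with a median of 1908 bp against 1462 bp for Or and 1397 bp for Gr genes, and 7 of the 9 receptor genes over 4 kb are Ir genes. Genes with no peak of any list within 10 kb were 21 Or, 14 Gr and 25 Ir genes, or 35.6%, 23.3% and 41.7%, against 14.2%, 14% and 11.2% of other genes of like length.

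**Figure D5:**
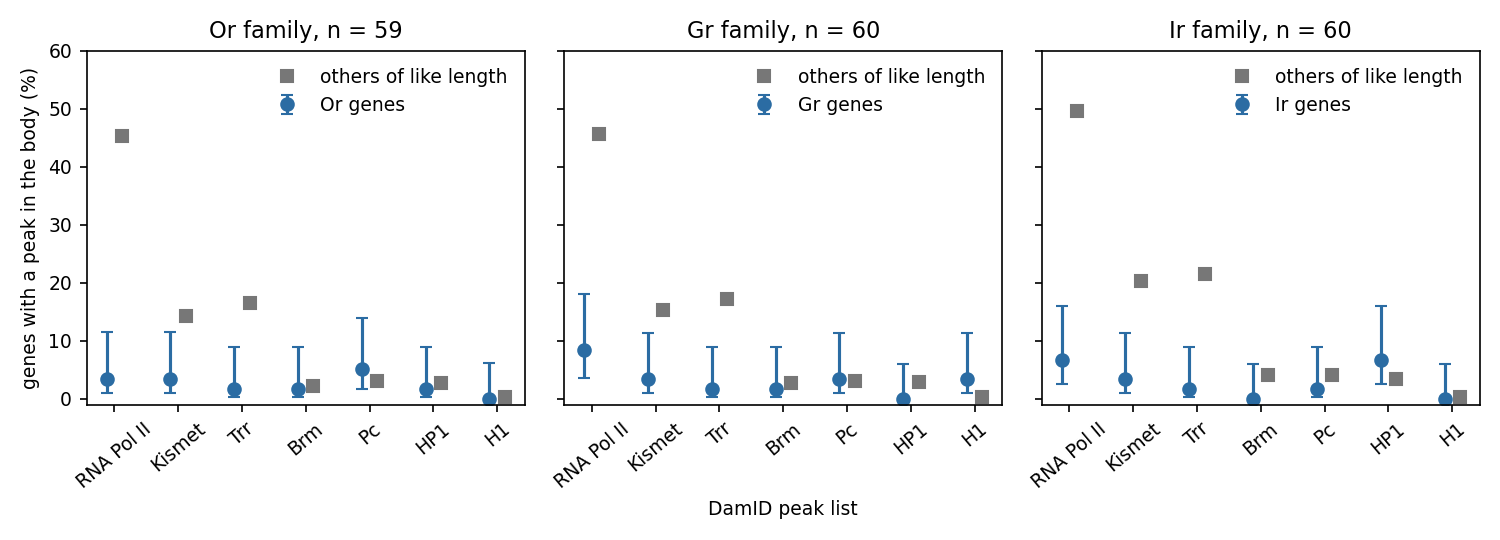
Share of Or, Gr and Ir genes with a peak in the body (blue points, 95% Wilson intervals) and of other protein-coding genes of like length (grey squares), in percent, for each list. In each family the intervals for RNA Pol II, Kismet and Trr end below the grey squares, and for Pc and HP1 they include the squares.

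Other chemosensory genes were looked up beside the receptors. Of 51 odorant-binding protein (Obp) genes, which encode carriers of odorants in the sensillar fluid, 4 or 7.84% (3.09% to 18.5%) had RNA Pol II peaks, against 32.2% of other genes of their lengths. Of 29 pickpocket (ppk) genes, which encode sodium channels of taste and touch neurons, 4 or 13.8% (5.50% to 30.6%) had them, against 50.7%. A peak of any list lay in 6 Obp and 10 ppk genes, or 11.8% (5.51% to 23.4%) and 34.5% (19.9% to 52.7%), and both intervals lay below the shares at like length, 39.9% and 59.0%. The ppk interval overlaps that of the receptor genes, so a higher share could not be told from counting error. Orco, the co-receptor of the Or proteins, and Snmp2 had 0 bp in peaks of any list, and Snmp1, which encodes a membrane protein needed for pheromone detection, had 350 of 3039 bp in a Kismet peak. At the other end for RNA Pol II, 83 of 92 cytoplasmic ribosomal protein genes, or 90.2% (82.4% to 94.8%), had peaks. Kismet peaks lay in 7 of them, or 7.61% (3.73% to 14.9%), and Trr peaks in 8, or 8.70% (4.47% to 16.2%). The shares at the lengths of the ribosomal protein genes were 39.6% for RNA Pol II, 13.3% for Kismet and 14.1% for Trr. For Kismet and Trr the ribosomal protein genes thus lay below, with the share at like length inside the interval. Low shares of Kismet and Trr peaks were therefore also seen in genes rich in RNA Pol II peaks.

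The description of these genes as silent was checked only through the absence of peaks. The number of GATC sites per gene and the reads behind each site were not used here, so a gene without a peak is not shown to be unbound, and both were left untested.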

How the data were processed

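Targeted DamID-seq data of 32 samples were used, through 7 peak lists. According to the methods of the study, the authors aligned reads to release 6 with bowtie2 in damidseq_pipeline, extended them, counted reads per GATC site with bedtools, discarded sites of low count, compared each fusion with its Dam-only controls in DESeq2 and joined neighboring sites that passed into a peak. The deposited lists hold positions only, so depth per sample is unknown. Starts were read as 0-based, since 985 peak ends on the 5 arms lay exactly 4 bp, the length of a GATC site, beyond a peak start. Positions are given 1-based.

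Genes came from the RefSeq table of the same release, which has no strand, exons or sequence. All 179 members matched a FlyBase identifier by symbol. Overlaps were counted in base pairs with Python 3.11.15, NumPy 2.4.6 and pandas 2.3.3, and figures drawn with matplotlib 3.10.9. The code was tested on simulated data. Shares have 95% Wilson intervals. Each list was counted again under 10 other settings, 1 of which was chosen after seeing the data. Genes named are the 5 with the largest share of the body in peaks of each list and the lists by role. The other genes with peaks (Ir60b, Or46a and Or10a), the tandem arrays and the genes near H1 peaks were named or defined after their values were seen. Members and lists were chosen with earlier results of these data known, and no p-value is given. RNA-seq was left out.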

Additional observations from a re-analysis of the deposited data

How the results depend on the processing

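No paired analysis was possible because each list is a single call over all samples of a fusion, and for the same reason no replicate could be left out. Each value is the share of receptor genes minus that of other genes of like length, in percentage points (RNA Pol II -40.7, Kismet -13.3, Trr -16.7, Brm -1.86, Pc -0.08, HP1 -0.21 and H1 0.82). For RNA Pol II, Kismet, Trr and Brm the difference stayed negative under all 10 alternatives. With genes extended by 1 kb it was -46.1 for RNA Pol II, -15.8 for Kismet, -24.2 for Trr and -3.75 for Brm. With at least 2 peak-edge GATC sites it was -15.2, -8.95 and -7.76 for the first 3. Peaks of at least the median length gave -24.2, -6.49 and -9.95, and peaks touching no other gene (added after seeing the data) -8.29, -4.29 and -7.41. At least 10% of the body gave -12.7 for Trr. Without length weighting it was -21.6 for Kismet, -21.9 for Trr and -5.98 for Brm. For the repressed lists the sign was not stable. Pc gave -2.0 among genes overlapping no other gene and turned to 0.28 without the 5 Mb nearest the centromeres. HP1 turned to 0.51 with 10% of the body, 0.32 with 2 peak-edge sites, 1.02 with long peaks and 0.17 with peaks touching no other gene. H1 turned to -0.19 with long peaks. The stricter rules left fewer of the other genes bound, and in most cases fewer receptor genes. With 2 peak-edge sites Trr stayed at 3 receptor genes, while its share in other genes went from 18.4% to 9.44%. With 10% of the body Kismet stayed at 6 receptor genes. Why the differences became smaller was not tested.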

Other observations

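By chromosome arm, 0 of 25 receptor genes on X had RNA Pol II or Kismet peaks, against 52.3% and 14.7% of other X genes of like length. Pc peaks were in 2 (8%, against 2.27%), but these are Gr10a and Or10a, which share a single peak. An HP1 peak was in 1 (4%, against 5.51%). On 3L, 4 of 35 had RNA Pol II peaks (11.4%, against 47.7%) and 3 had Kismet peaks (8.57%, against 19.2%). On 2L, 3 of 31 had HP1 peaks (9.68%, against 3.00%), 2 had RNA Pol II peaks (6.45%, against 44.3%) and 2 had H1 peaks (6.45%, against 0.545%). RNA Pol II peaks were in 3 of 46 on 2R (6.52%, against 48.3%) and in 2 of 42 on 3R (4.76%, against 45.2%). The intervals of the RNA Pol II shares overlap between all 5 arms. No cause was tested for any of these values.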
